A study of Rattus norvegicus with 12 samples.

Results

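The genes described here are the liver microRNAs numbered miR-23, miR-24 and miR-27, which are made from neighbouring hairpins in a pair of genomic clusters. The rule that picks them uses gene names and no measured value: it takes every row whose gene name carries the microRNA number 23, 24 or 27, and 5 of the 444 features in the table met it. Mir23b and Mir27b lie on chromosome 17, and Mir23a, Mir27a and Mir24-2 lie on chromosome 19. A second copy of the miR-24 hairpin, Mir24-1, is not analysed here. All 5 genes were above 0 in every library and all 5 were among the 293 features tested.

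MicroRNAs were sequenced from liver of male Sprague-Dawley rats (Jcl:SD), an outbred stock, bought at 6 weeks of age and grouped at 7 weeks. Each group had 5 rats and was dosed by mouth on 5 consecutive days, and liver was taken 1 h after the last dose. Control rats received the vehicle, sterile distilled water. CAF rats received caffeine at 120 mg/kg, DEX rats received dextromethorphan hydrobromide monohydrate at 100 mg/kg, and CAF+DEX rats received both drugs at the same doses. Dextromethorphan, a cough remedy, is a standard probe substrate of hepatic cytochrome P450 enzymes, and caffeine, which blocks adenosine receptors, is another. The table holds 3 libraries per group, 12 in all, and does not tie a library to an animal, so the p-values measure only the spread between these libraries, which may be technical. The data come from pieces of whole liver, so fewer cells of a type and less RNA per cell cannot be told apart.

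A microRNA is cut from a hairpin precursor and guides a silencing complex to messenger RNAs, mainly through its seed, bases 2 to 8 from the 5′ end. The miR-23, miR-27 and miR-24 hairpins are transcribed together as clusters, which are best known from blood vessel endothelium, muscle and metabolic tissue. In liver biology miR-27b is known to repress transcripts of cytochrome P450 enzymes and of the vitamin D receptor, miR-27a and miR-27b those of lipid-handling nuclear receptors, and miR-24 that of the hepatocyte factor HNF4A. MiR-23a and miR-23b are known to repress the transcript of mitochondrial glutaminase. These roles are background and no target was measured here.

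The mature 3′ arms are shown first because they define which genes can be told apart in these data. The sequences are from RefSeq (rat assembly GRCr8), in which all 5 hairpins were matched by symbol, and the capitals mark the seed.
rno-miR-23a-3p: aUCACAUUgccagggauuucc
rno-miR-23b-3p: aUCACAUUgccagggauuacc
rno-miR-27a-3p: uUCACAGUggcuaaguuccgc
rno-miR-27b-3p: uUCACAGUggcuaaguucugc
rno-miR-24-3p: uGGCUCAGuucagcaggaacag

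The 5 genes therefore carry 3 seeds. Counting from the 5′ end, miR-23a-3p and miR-23b-3p differ by U19A and miR-27a-3p and miR-27b-3p by C19U, with the chromosome 19 gene's base given first. Each of these pairs is 21 bases long and differs at that 1 position. A read that ends before base 19, or carries an error there, could come from either gene, so the split within each pair depends on the authors' alignment settings. The 22 bases of miR-24-3p are the same from Mir24-1 and Mir24-2, so the value of Mir24-2 cannot be read as the output of the chromosome 19 copy alone. Among 694 mature rat sequences in the RefSeq table, the seed of miR-23 was held by those of Mir23a and Mir23b, that of miR-27 by those of Mir27a and Mir27b, and that of miR-24 by those of Mir24-1 and Mir24-2.

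The opposite arms separate some of the copies better. They are shown to mark where the near-identical genes diverge, again with the seed in capitals.
rno-miR-27a-5p: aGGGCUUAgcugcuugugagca
rno-miR-27b-5p: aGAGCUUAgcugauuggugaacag
rno-miR-23b-5p: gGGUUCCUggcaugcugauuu
rno-miR-24-1-5p: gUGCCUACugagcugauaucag
rno-miR-24-2-5p: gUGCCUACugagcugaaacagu

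The 5′ arms of miR-27a and miR-27b have different seeds, unlike their 3′ arms. Those of miR-24-1 and miR-24-2 share a seed and differ at 5 positions near the 3′ end, which are U17A, U19C, C20A, A21G and G22U, with the miR-24-1 base first. The deposited table counts a whole hairpin and does not separate the arms, so the share of each arm was not measured.

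Whole hairpins diverged further than the mature 3′ arms. The RefSeq hairpins of Mir23a and Mir27a are printed with the mature 3′ arm in capitals, beside those of Mir23b and Mir27b, because these precursors are the units counted.
Mir23a: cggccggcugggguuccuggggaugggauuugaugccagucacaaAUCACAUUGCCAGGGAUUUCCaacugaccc
Mir23b: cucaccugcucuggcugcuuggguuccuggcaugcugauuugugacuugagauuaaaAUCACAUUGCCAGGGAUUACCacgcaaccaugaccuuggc
Mir27a: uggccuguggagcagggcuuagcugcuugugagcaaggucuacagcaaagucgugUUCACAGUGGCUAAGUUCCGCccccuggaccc
Mir27b: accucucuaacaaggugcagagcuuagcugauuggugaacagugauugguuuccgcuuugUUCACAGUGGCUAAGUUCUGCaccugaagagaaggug

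Of the shorter hairpin, 88% of bases were identical between Mir23a and Mir23b and 73.6% between Mir27a and Mir27b. The deposited lengths were 75 bases for Mir23a, 87 for Mir27a, 97 for Mir23b, 104 for Mir27b and 108 for Mir24-2. The RefSeq hairpin of Mir27b is 97 bases long, shorter than its interval in the table.

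In the table's coordinates (build rn7) all 5 hairpins are on the minus strand. On chromosome 17, Mir27b (ENSRNOG00000035576) spans chr17:1813426-1813529 and Mir23b (ENSRNOG00000035467) spans chr17:1813667-1813763, 137 bases apart. On chromosome 19, Mir24-2 (ENSRNOG00000035501) spans chr19:23954683-23954790, Mir27a (ENSRNOG00000035597) spans chr19:23954831-23954917 and Mir23a (ENSRNOG00000035644) spans chr19:23954997-23955071. The gaps there are 40 bases between Mir24-2 and Mir27a and 79 bases between Mir27a and Mir23a. In the RefSeq annotation of GRCr8, Mir27b and Mir23b lie within the span of Aopep, an aminopeptidase gene, and the chromosome 19 hairpins lie within the span of no other gene. Mir24-1, the other copy of the miR-24 hairpin, also lies within the span of Aopep. The annotation used gives no exon, intron or UTR for these positions.

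One other feature of the table lies within 10 kb of a member. Mir3074 is on the plus strand of chromosome 17, 381 bases from Mir27b, and its RefSeq hairpin contains the reverse complement of miR-24-3p. It averaged 1.32 reads per library, with a range of 0.50 to 3.50, so the strand opposite the miR-24 sequence gave almost no reads.

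Mir27b was by far the most abundant of the 5 genes, at 194879 ± 12702 FPKM (SD, n = 12 libraries). FPKM is reads per kilobase of hairpin for every 1000000 reads on the listed features. Mir27a followed at 36308 ± 3143 FPKM, then Mir23b at 23817 ± 994, Mir23a at 22878 ± 1640 and Mir24-2 at 21752 ± 816 FPKM. Mir27b ranked between 12 and 18 among the 444 features, Mir27a between 39 and 45, Mir23b between 53 and 56, Mir23a between 50 and 61 and Mir24-2 between 56 and 60. The 5 genes summed to between 2.71 and 3.19% of reads in a library, of which Mir27b alone took 1.84 to 2.20%.

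The upper places of that order held in every library and the lower places did not. Mir27b stood above Mir27a in 12 of 12 libraries, with a ratio of 4.39 to 6.36 and a median of 5.49. Mir27a stood above each of the other 3 genes in 12 of 12 libraries. Mir23b was above Mir23a in 9 of 12 libraries, and their ratio ran from 0.904 to 1.16, so these neighbours in the order did not differ beyond their spread. Mir23a was above Mir24-2 in 9 of 12 libraries, at 0.967 to 1.13, which is likewise within the spread, whereas Mir23b was above Mir24-2 in 12 of 12. On the scale of reads per hairpin, without division by length, Mir24-2 averaged 7441 reads, Mir23b 7311 and Mir23a 5435, so the lowest place passed from Mir24-2 to Mir23a.

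**Figure D1:**
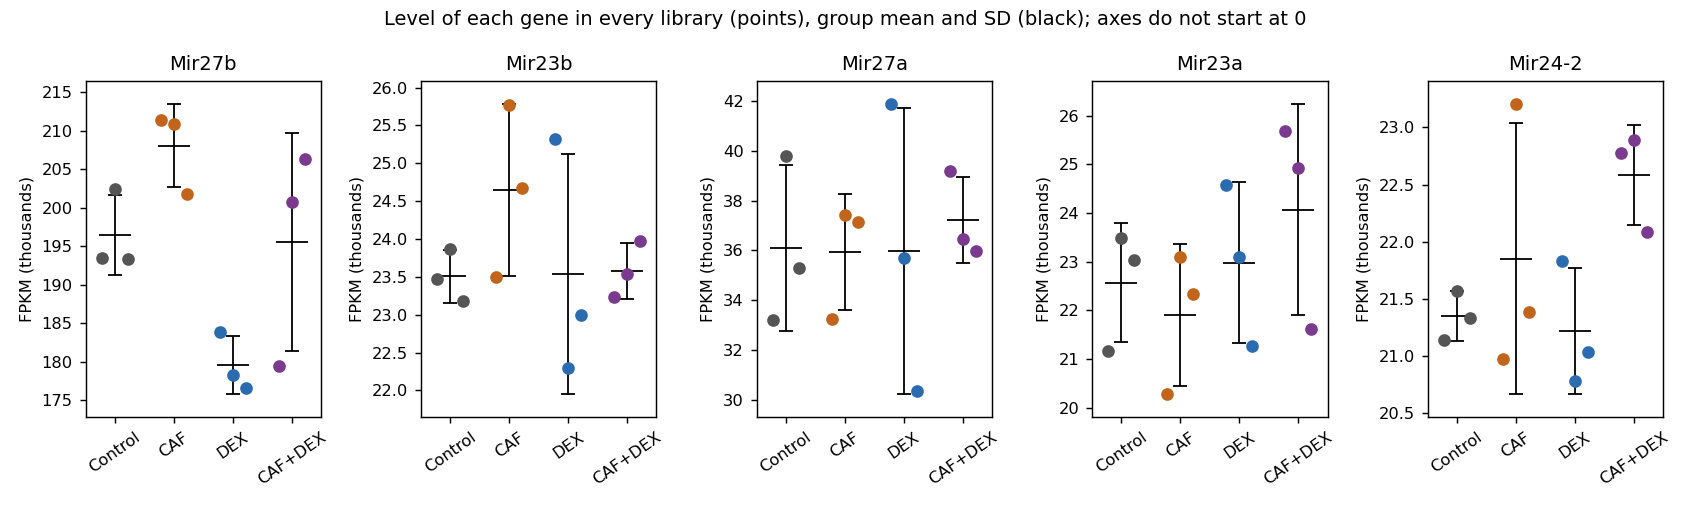
Levels of the 5 genes in FPKM (axes in units of 1000 FPKM, linear, differing between panels and not starting at 0) in the 4 treatment groups. Coloured points are single libraries, and black lines are the mean and SD of 3 libraries. All 3 DEX libraries of Mir27b lie below all 3 Control libraries, and the groups of Mir27a and Mir23a overlap throughout.

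Hepatocyte microRNAs took a large share of the libraries: the 7 features of the hepatocyte list summed to 35.7 to 39.5% of reads. The endothelial marker list took a small share, 0.0261 to 0.0391% of reads. Its 5 features include Mir221, whose level is not given here. Mir126a averaged 15.3 reads, Mir222 27.8 and Mir218-2 382.5, and Mir218-1 was at 0 in all libraries. How reads were divided between the copies Mir218-1 and Mir218-2 was not tested, so that 0 says nothing of endothelium. Depth was 2863572 to 3418568 recovered reads per library, which gave each member at least 4355 reads. Counting error was therefore small, with an expected coefficient of variation of 0.395% for Mir27b and 1.36% for Mir23a, against 6.52% and 7.17% observed over the 12 libraries. Expected values cover counting error only, since sequencing reads need not be independent molecules.

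Libraries of one group agreed more closely for some members than for others. The SD within groups, on the log2 scale of the test, was 0.046 for Mir24-2, 0.060 for Mir23b and 0.062 for Mir27b, all below the median of 0.10 over the 91 features averaging at least 1000 reads. Mir23a had 0.11 and Mir27a had 0.15. Mir24-2 thus varied least and Mir27a most among the 5 genes, as a description of these libraries without a test.

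The first question was whether either drug alone, or both together, moved these genes from the vehicle level. None of the 5 genes differed from Control after any treatment at a limma adjusted p under 0.05, Benjamini-Hochberg adjusted over 293 features. The fitted ratios over the 25 pairwise values of the 5 genes ran from 0.914 to 1.10. The 95% intervals reached no further than 0.839 (Mir27b, DEX against Control) and 1.24 (Mir23a, CAF+DEX against CAF). These intervals bound the size of a change in either direction and do not show that the groups were alike.

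Mir27b, the repressor of cytochrome P450 transcripts, showed the clearest separation of groups. In Control its levels were 193508, 202388 and 193320 FPKM, in CAF 211432, 210881 and 201824 FPKM, in DEX 183822, 178285 and 176575 FPKM, and in CAF+DEX 179444, 200778 and 206284 FPKM. All 3 DEX libraries were below every Control and every CAF library. DEX was not tested against CAF, and no share over all features was computed for that separation. Of the 3 CAF libraries 2 were above every Control library, and the CAF+DEX libraries ran from inside the DEX range to inside the CAF range. The group means were 196406 ± 5182 in Control, 208046 ± 5395 in CAF, 179561 ± 3788 in DEX and 195502 ± 14177 FPKM in CAF+DEX (SD, n = 3).

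In DEX the level of Mir27b was 0.914 times that of Control, a log2 difference of -0.13 (SE 0.06, 95% interval -0.25 to -0.0049), with a limma adjusted p of 0.842. Before adjustment the limma p was 0.0428, and 4.44% of the 293 features had an unadjusted p under 0.05 in this comparison. After adjustment 0% of features passed. Having all 3 DEX libraries below all 3 Control libraries was shared with 4.1% of features. Over all alternatives tried the difference stayed between -0.19 and -0.11, and the lowest limma adjusted p was 0.512.

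In CAF the level of Mir27b was 1.06 times that of Control (log2 difference 0.08, SE 0.06), with a limma adjusted p of 0.661, and the log2 difference was 0.05 with quantile normalization. In this comparison 0 of the 5 members passed, beside 0.683% of all features, and 0 of the 5 had an unadjusted limma p under 0.05, beside 13% of all features. In CAF+DEX the log2 difference of Mir27b from Control was -0.0089 (SE 0.06), with a limma adjusted p of 1.00, and it was 0.05 without CAF+DEX library 1, the lowest of its group. In CAF+DEX against Control 0% of features passed, and an unadjusted limma p under 0.05 was held by 0 of the 5 members and 10.2% of features.

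The comparisons of the combination with each single drug gave Mir27b a log2 difference of 0.12 (SE 0.06) from DEX and of -0.09 (SE 0.06) from CAF, with limma adjusted p of 0.575 and 0.900. CAF+DEX library 1 weighed on both values: without it they were 0.18 and -0.03, and without CAF+DEX library 5 they were 0.08 and -0.13. In both of these comparisons 0% of features passed. Against DEX, 7.85% of features had an unadjusted limma p under 0.05, and against CAF 5.12% did. CAF+DEX library 1 lay inside the DEX range of Mir27b and the other two CAF+DEX libraries lay above it, so the groups overlapped in the comparison with DEX.

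Averaged over the presence or absence of the other drug, Mir27b was 1.07 times higher with caffeine (log2 difference 0.10, SE 0.04, limma p 0.0268 before and adjusted p 0.253 after adjustment). It was 0.926 times as high with dextromethorphan (log2 difference -0.11, SE 0.04, limma p 0.0178 before and adjusted p 0.520 after adjustment), and its p ranked 10 among the 293 features. Unadjusted values under 0.05 were held by 14.7% of features for caffeine and 7.51% for dextromethorphan, while 0.683% and 0% passed after adjustment. The interaction of the drugs was 0.04 (SE 0.08), with a limma adjusted p of 0.991. For the interaction 0% of features passed, and 5.46% had an unadjusted p under 0.05, which 0 of the 5 members had. In the test of any difference between the 4 groups Mir27b had a limma p of 0.0213 before and an adjusted p of 0.345 after adjustment, where 11.3% of features had an unadjusted p under 0.05 and 0.341% passed.

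The summed marker lists of blood cells had lower medians in CAF than in Control. The 6 leukocyte microRNAs summed to 1.75 to 2.15% of reads in the CAF libraries and 1.96 to 2.40% in the CAF+DEX libraries, against 2.63 to 2.99% in the Control libraries and 2.59 to 2.97% in the DEX libraries. All 6 were lower in CAF than in Control, where 50.9% of the 293 features were higher. Of the 6, 2 passed the test, beside 0.683% of all features. Mir142 fell by 0.60 and Mir146a fell by 0.49 on the log2 scale, each with a limma adjusted p of 0.0294. Both calls were lost, with limma adjusted p of 0.0844 to 0.132, when library 1 or 3 of Control or library 2 or 5 of CAF was left out, and that of Mir146a also without DEX library 2 (0.0544). They were also lost with no filter on low values (0.0573) and in a fit of only the groups compared (0.0793 and 0.0985), and both stayed lower in CAF under all 20 alternatives. The 3 erythroid microRNAs summed to 0.0602 to 0.114% of reads in the CAF libraries and 0.0847 to 0.0940% in the CAF+DEX libraries, against 0.101 to 0.121% in the Control libraries and 0.0906 to 0.122% in the DEX libraries. Their median log2 differences from Control were -0.53 in CAF and -0.34 in CAF+DEX, and 0 of the 3 passed the test in any comparison. The hepatocyte list spanned 36.8 to 39.5% in Control and 35.9 to 36.8% in DEX. The part of these lists in the values of Mir27b was not tested.

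Mir23b, the chromosome 17 neighbour of Mir27b, moved little. Its levels were 23476, 23871 and 23178 FPKM in Control, 23493, 25766 and 24670 in CAF, 25324, 22296 and 22991 in DEX, and 23229, 23535 and 23971 FPKM in CAF+DEX. The groups overlapped in every comparison, and the DEX libraries lay on both sides of Control. The largest pairwise log2 difference was 0.07 (SE 0.06, CAF against Control), with a limma adjusted p of 0.760, and it was 0.03 without CAF library 2 and 0.10 without CAF library 1.

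Mir24-2, which makes the HNF4A repressor miR-24, had 21141, 21574 and 21335 FPKM in Control and 20976, 23201 and 21382 FPKM in CAF. It had 21835, 20787 and 21039 FPKM in DEX and 22780, 22891 and 22081 FPKM in CAF+DEX. All 3 CAF+DEX libraries were above every Control and every DEX library, and 1 CAF library was above them all. From Control the CAF+DEX group differed by 0.08 on the log2 scale (SE 0.05, ratio 1.06, 95% interval 0.975 to 1.15), with a limma adjusted p of 0.844. From DEX it differed by 0.09 (SE 0.05, ratio 1.06), with a limma adjusted p of 0.633. With quantile normalization these log2 differences were 0.0275 from Control and 0.034 from DEX. Such a separation upward was shown by 7.17% of features against Control and by 4.78% against DEX.

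Mir27a, which shares its seed with Mir27b, had 33220, 39771 and 35290 FPKM in Control and 33261, 37420 and 37159 FPKM in CAF. It had 41866, 35701 and 30374 FPKM in DEX and 39181, 36470 and 35981 FPKM in CAF+DEX. The DEX group held both the highest and the lowest of the 12 values, and all groups overlapped. The DEX difference from Control was -0.01 (SE 0.10, 95% interval -0.24 to 0.22), with a limma adjusted p of 1.00, and it was -0.13 without DEX library 1 and 0.10 without DEX library 4.

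Mir23a, the glutaminase repressor of the chromosome 19 cluster, had 21174, 23482 and 23034 FPKM in Control and 20276, 23099 and 22326 FPKM in CAF. It had 24573, 23089 and 21271 FPKM in DEX and 25685, 24920 and 21610 FPKM in CAF+DEX. The groups overlapped in every comparison. Its largest pairwise log2 difference, CAF+DEX against CAF, was 0.13 (SE 0.08), with a limma adjusted p of 0.900. It was 0.08 without CAF library 1, 0.09 without CAF+DEX library 1 and 0.21 without CAF+DEX library 5.

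**Figure D2:**
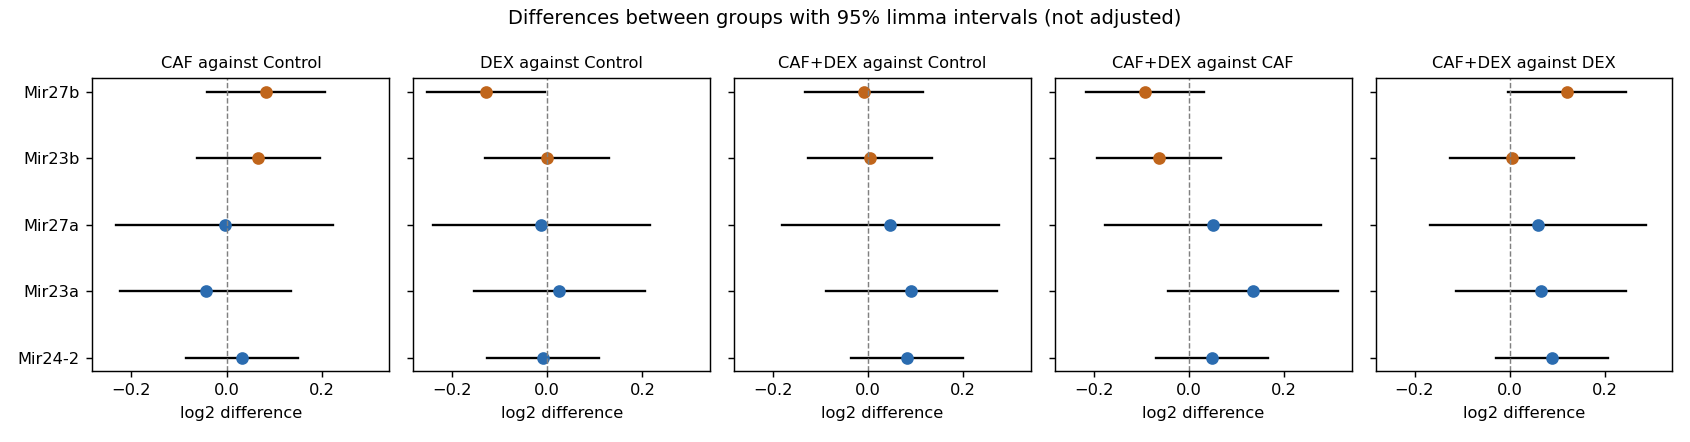
Log2 differences of the 5 genes in the 5 pairwise comparisons, with points for the fitted difference and bars for the 95% interval, not adjusted for the number of tests, from the limma model of 12 libraries. Orange points are chromosome 17 genes and blue points chromosome 19 genes. The interval of Mir27b in DEX against Control ends at -0.0049, and the intervals of the other genes in that comparison include 0.

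The directions over the 5 genes differed between comparisons. Against Control, 3 of the 5 were higher in CAF (median log2 difference 0.03), 1 of 5 in DEX (median -0.0091) and 4 of 5 in CAF+DEX (median 0.05). The medians over all 293 features were 0.0023, 0.0039 and -0.0087 in the same order, and 50.9, 51.2 and 47.8% of them were higher. All 5 genes were higher in CAF+DEX than in DEX (median 0.07), where 46.1% of all features were higher, and all 5 were higher with caffeine averaged over dextromethorphan (median 0.04), where 47.8% of all features were higher. In the comparison with DEX, Mir23b turned direction without DEX library 2 or 4 or CAF+DEX library 5, and Mir27a without DEX library 4. For caffeine, Mir27a turned without Control library 1 or DEX library 4, and Mir23a turned with quantile normalization or without library 1 of Control, 2 of CAF, 4 of DEX, or 1 or 2 of CAF+DEX. In CAF+DEX against CAF 3 of 5 were higher (median 0.05), beside 48.8% of all features. With 5 genes from 2 loci these counts are not 5 independent observations.

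The proportions of genes within a cluster were compared next, as a description. On chromosome 17, the ratio of Mir27b to Mir23b was 8.35 ± 0.12 in Control, 8.46 ± 0.47 in CAF, 7.65 ± 0.37 in DEX and 8.29 ± 0.49 in CAF+DEX (SD, n = 3). The DEX libraries ranged from 7.26 to 7.996 and the Control libraries from 8.24 to 8.48, so these groups did not overlap. The ratio holds the same Mir27b levels that separated DEX from Control, so it is not a second observation. Mir23b had a log2 difference of -0.00030 in DEX from Control. No share over ratios of other features was computed. An exact permutation test of 3 against 3 libraries cannot go below a p of 0.10, and this ratio was not tested.

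On chromosome 19, the ratio of Mir27a to Mir23a was 1.60 ± 0.08 in Control, 1.64 ± 0.02 in CAF, 1.56 ± 0.14 in DEX and 1.55 ± 0.10 in CAF+DEX, with overlapping libraries. Between clusters, the ratio of Mir27b to Mir27a was 5.46 ± 0.37 in Control, 5.81 ± 0.49 in CAF, 5.07 ± 0.71 in DEX and 5.27 ± 0.61 in CAF+DEX. Mir23b to Mir23a was 1.13 ± 0.03 in CAF and 0.986 ± 0.109 in CAF+DEX, with 1 of the CAF+DEX libraries inside the CAF range.

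**Figure D3:**
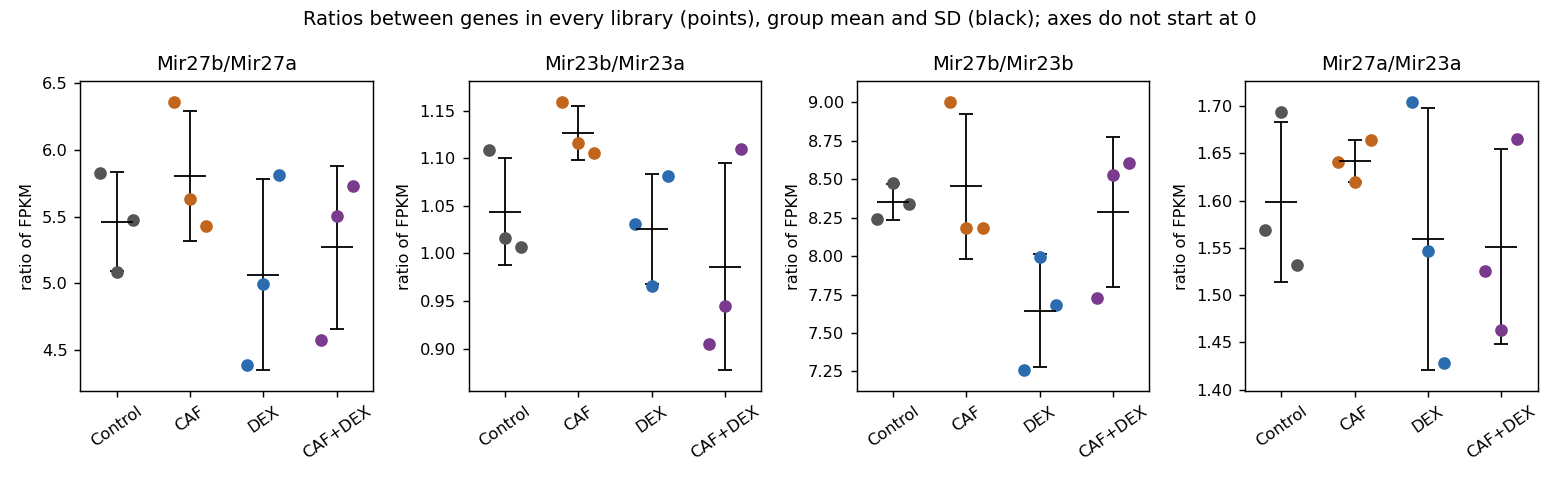
Ratios of FPKM between pairs of genes (linear axes that differ between panels and do not start at 0) in the 4 groups, with points for single libraries and black lines for the mean and SD of 3. In DEX the Mir27b/Mir23b ratio is 7.26 to 7.996, below the 8.24 to 8.48 of Control, and the other ratios overlap between these groups. The Mir27b/Mir23b ratio holds the Mir27b levels already shown and was not tested.

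The 10 pairs of members were then compared across the 12 libraries by correlation of log2 levels, with permutation tests of 100000 resamples and adjustment over the 10 pairs. Mir27a and Mir23a, neighbours on chromosome 19, varied together (Pearson r = 0.75, permutation p = 0.00441, adjusted 0.0441). Their Spearman rho was 0.80 (permutation p = 0.00319, adjusted 0.0319). The r stayed at 0.75 without the 2 libraries farthest from the median of Mir27a, and it was 0.80 after removing the group means.

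The other 2 pairs of that cluster had lower coefficients. Both hold Mir24-2, whose value may include reads from Mir24-1. Mir24-2 and Mir23a had r = 0.63 (permutation p = 0.0296, adjusted 0.148) and rho = 0.66 (permutation p = 0.0216, adjusted 0.04995). Mir24-2 and Mir27a had r = 0.50 (permutation p = 0.0989, adjusted 0.182) and rho = 0.66 (permutation p = 0.0228, adjusted 0.04995). After removing the group means, r was 0.70 for Mir24-2 with Mir23a and 0.53 for Mir24-2 with Mir27a. On chromosome 17, Mir27b and Mir23b had r = 0.49 (permutation p = 0.109, adjusted 0.182) and rho = 0.65 (permutation p = 0.0261, adjusted 0.04995). Without the 2 libraries farthest from the median of Mir27b that r was 0.20, so it depended at least in part on those libraries. Leaving out the most extreme levels can itself lower r, so this does not show that the relation rested on them alone. The r was 0.57 with median-of-ratios scaling and 0.36 after removing the group means.

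Pairs listed on different chromosomes gave both high and low values. Those with Mir24-2 cannot be assigned to separate clusters, since its miR-24-3p is shared with Mir24-1, which lies within Aopep like Mir23b. Mir23b had r = 0.51 with Mir24-2 and 0.52 with Mir27a (permutation p = 0.0891 and 0.0809, both adjusted 0.182), and rho of 0.65 and 0.64 (permutation p = 0.0258 and 0.0300, both adjusted 0.04995). Without the 2 libraries farthest from the median of Mir23b these r values were 0.26 and 0.33. After removing the group means they were 0.72 and 0.64, and with median-of-ratios scaling 0.57 and 0.36. Mir27b and Mir27a, which share a seed and differ at 1 base, had r = 0.07 (permutation p = 0.831, adjusted 0.831) and rho = 0.15 (permutation p = 0.649, adjusted 0.649). For Mir27b and Mir23a r was -0.32 (permutation p = 0.307, adjusted 0.438) and rho -0.24, and it was -0.63 without the 2 libraries farthest from the median of Mir27b. The remaining pairs were Mir27b with Mir24-2 (r = 0.27, rho = 0.30) and Mir23b with Mir23a (r = 0.14, rho = 0.20), with permutation p = 0.389 and 0.659 for r, adjusted 0.487 and 0.732. The libraries share their depth scaling across all genes, and whether the coefficients of 2 pairs differ was not tested.

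**Figure D4:**
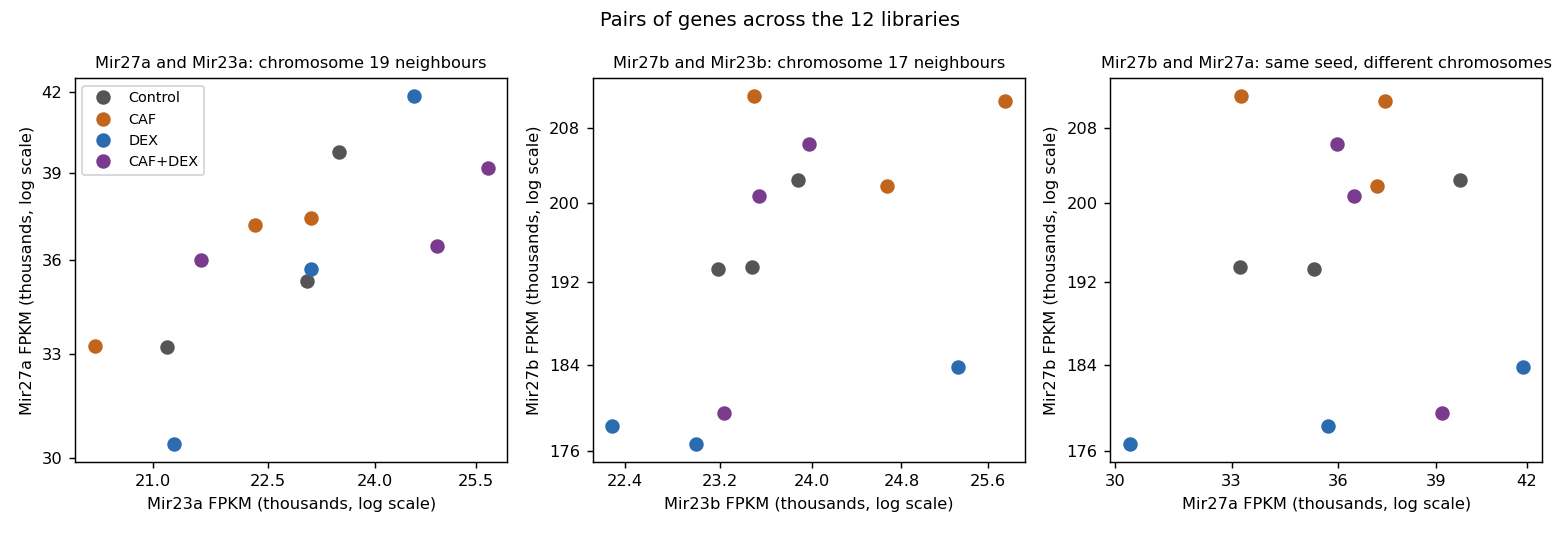
Levels of pairs of genes across the 12 libraries (axes in units of 1000 FPKM on a log scale, not starting at 0), 1 point per library coloured by group. The points of Mir27a and Mir23a rise together (r = 0.75), and those of Mir27b and Mir27a do not line up (r = 0.07).

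A pair of other microRNA families overlaps these seeds when shifted by 1 base, with bases 2 to 7 equal to bases 3 to 8 of a member. They are printed with the shared 6 bases in capitals.
rno-miR-128-3p: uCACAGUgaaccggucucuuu
rno-miR-222-5p: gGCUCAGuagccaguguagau

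The miR-128 genes, which overlap the miR-27 seed, were less abundant than either miR-27 gene. Mir128-1 had 7420 ± 553 FPKM and Mir128-2 had 3436 ± 266 FPKM over the 12 libraries (SD, n = 12), with copies that share 1 mature 3′ sequence and cannot be told apart by it. Mir222, whose opposite arm overlaps the miR-24 seed, had 85.2 ± 13.5 FPKM, from a mean of 27.8 reads. None of the 3 passed the limma test in any comparison, and the largest difference from Control was -0.19 (SE 0.24) for Mir222 in CAF, with an adjusted p of 0.870.

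The other microRNAs known as regulators of cytochrome P450 or nuclear receptor transcripts gave the wider setting for miR-27b and miR-24. Of the 19 features on that list that were tested, 0 passed the limma test in any comparison at an adjusted p under 0.05. In CAF 7 were higher and 12 lower than Control (median log2 difference -0.06), in DEX 7 and 12 (median -0.02), and in CAF+DEX 8 and 11 (median -0.08), beside medians over all features of 0.0023, 0.0039 and -0.0087. Mir152 and Mir130b had the smallest p in the test of any difference. Mir152, of the miR-148 family, was 0.17 higher in CAF than in Control on the log2 scale (SE 0.06), with a limma adjusted p of 0.206. Mir130b, at a mean of 52.9 reads, had a difference of -0.95 (SE 0.29) with a limma adjusted p of 0.143. These log2 differences exceed those of Mir27b in the same comparison, and none of them passed.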

How the data were processed

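The authors deposited FPKM per hairpin for 12 libraries on build rn7. Per the submitters' processing notes the tools were cutadapt 3.7, STAR 2.7.11b and featureCounts of Subread 2.0.6. Settings, and whether molecular indices were collapsed, are not given in the sources used here. FPKM times length in kilobases summed to 1000000 in each library, so levels are relative to the listed features. Reads recovered from the FPKM fell on multiples of 0.01 read, so members can hold fractions of shared reads. Features above 0 in at least 3 libraries were tested as log2(FPKM + 4.01), where the pseudocount is the 10th percentile of values above 0, in 1 model with a mean for each of the 4 groups, fitted with limma 3.58.1 (trended variance) in R 4.3.3. The p-values were adjusted over 293 features by Benjamini-Hochberg, with a threshold of 0.05. The model and the read recovery were tested on simulated data.

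Every member is named in every comparison. Other features are named by distance (10 kb), by shared seed, by the 3 highest correlations with a member among features averaging at least 100 reads, or as the 2 of a list with the smallest p. Members and lists were chosen with earlier results of these data known. The table's column numbers (Control 1, 3 and 4; CAF and CAF+DEX 1, 2 and 5; DEX 1, 2 and 4) name libraries here and match groups but not sample titles. Libraries of a group were not copies of each other: a chi-square of their reads was 38.3 to 193.7 per degree of freedom. Alternatives changed the pseudocount, filter, scaling, model and libraries.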

Additional observations from a re-analysis of the deposited data

How the results depend on the processing

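The 40 differences of the 5 genes were recomputed under up to 20 other settings, 785 values in all. None passed an adjusted p of 0.05 with limma, the lowest being 0.0793 (Mir27b, caffeine averaged over dextromethorphan, without CAF+DEX library 1), so 0 of the 5 genes passed in each comparison under each setting. The direction was kept in 744 values and turned in 41. With median-of-ratios scaling the log2 difference of Mir27b in CAF+DEX against Control was 0.000825 and that of Mir27a in CAF against Control 0.013. With quantile normalization the values were 0.00823 for Mir23b and 0.063 for Mir27a in DEX against Control, 0.045 for Mir27a in CAF against Control and -0.00129 for the caffeine main effect on Mir23a. The cause was not tested. Over all features tested the number passing moved from 2 to between 0 and 10 in CAF against Control. It moved from 2 to between 1 and 11 for the caffeine main effect and from 1 to between 0 and 4 for any difference. Elsewhere it stayed at 2 or fewer. The main model tested 293 features, and another filter or a left-out library could change that set.

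Leaving out each library in turn gave log2 ranges that crossed 0 for these results. For CAF against Control they were -0.012 to 0.061 (Mir24-2), -0.062 to 0.068 (Mir27a) and -0.089 to 0.011 (Mir23a). For DEX against Control they were -0.054 to 0.038 (Mir23b), -0.030 to 0.0056 (Mir24-2), -0.13 to 0.10 (Mir27a) and -0.025 to 0.080 (Mir23a). For CAF+DEX against Control they were -0.049 to 0.052 (Mir27b), -0.0077 to 0.015 (Mir23b) and -0.011 to 0.12 (Mir27a). For CAF+DEX against DEX they were -0.033 to 0.058 (Mir23b) and -0.056 to 0.18 (Mir27a), and against CAF -0.0041 to 0.081 (Mir27a). For the interaction they were -0.0028 to 0.098 (Mir27b) and -0.052 to 0.18 (Mir27a). For the caffeine main effect they were -0.030 to 0.086 (Mir27a) and -0.016 to 0.049 (Mir23a), and for dextromethorphan -0.039 to 0.077 (Mir27a).

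No paired analysis was possible because the table's column numbers could not be matched to the sample titles. A sum of both miR-24 copies was not run, since Mir24-1 is not analysed here, and a fit of only the groups compared was not run for contrasts that use all 4 groups. Precision was limited by 3 libraries per group rather than by reads. FPKM divides by hairpin length although the reads are mostly shorter than the hairpin, so levels between genes depend on that length: the Mir27b to Mir27a ratio was 5.40 per length and 6.46 in reads. With median-of-ratios scaling the correlation of Mir27a and Mir23a was 0.69. Differences between groups do not depend on hairpin length.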

Other observations

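For each of the 5 genes, the 3 other features most like it across the 12 libraries were taken from 130 features averaging at least 100 reads, by Pearson r of log2 levels. These coefficients describe the libraries: they are the highest of 130, all features share the depth scaling, and no p is given. Mir27b was most like Mir28 (r = 0.78, rho = 0.77), Mir106a (r = 0.68, rho = 0.76) and Mir152 (r = 0.67, rho = 0.53), and Mir23b was most like Mir328 (r = 0.80, rho = 0.91), Mir106a (r = 0.69, rho = 0.77) and Mir17 (r = 0.67, rho = 0.78). Mir106a was on the lists of both chromosome 17 genes.

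On chromosome 19, Mir23a was most like Mir143 (r = 0.77, rho = 0.61), Mir450a1 (r = 0.74, rho = 0.76) and Mir351 (r = 0.70, rho = 0.73). Mir27a was most like Mir145 (r = 0.68, rho = 0.72), Mir328 (r = 0.68, rho = 0.56) and Mir664-2 (r = 0.67, rho = 0.59). Mir24-2 was most like Mir125a (r = 0.74, rho = 0.56), Mir26b (r = 0.71, rho = 0.53) and Mir351 (r = 0.69, rho = 0.64). Mir351 was on the lists of Mir23a and Mir24-2, and Mir328 was on the lists of Mir23b on chromosome 17 and Mir27a on chromosome 19. Without the 2 libraries farthest from the member's median, r fell to 0.18 for Mir27a with Mir328, 0.20 for Mir27a with Mir664-2, 0.32 for Mir24-2 with Mir26b and 0.45 for Mir23a with Mir351, so these 4 rested at least in part on those libraries. For the other 11 pairs it was between 0.52 and 0.80.

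Mir143 and Mir145, the closest features of Mir23a and Mir27a, are known from stellate and smooth muscle cells. Mir152, which is on the same marker list, was among the 3 features most like Mir27b on chromosome 17. The 5 features of that list summed to 3.19 to 3.47% of reads in the Control libraries and 3.37 to 3.48% in the DEX libraries, with 2.98 to 3.81% in CAF and 3.14 to 3.94% in CAF+DEX, and 0 of the 5 passed the limma test in any comparison. Their part in the variation of the chromosome 19 genes and of Mir27b was not tested.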
